A study of Homo sapiens with 18 samples.

Results

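The 10 genes described here are 6 of the class 3 semaphorins (SEMA3A, SEMA3B, SEMA3C, SEMA3D, SEMA3E and SEMA3F), both neuropilins (NRP1 and NRP2) and the plexins PLXNA1 and PLXND1. They were taken by gene symbol from the table of 25296 genes, and all 10 passed the filter on low counts that left 18226 genes for testing. SEMA3A was chosen by its measured level in these libraries, because its untreated level and its log2 fold change with cytarabine differed between lines. Its values are therefore a description and were not tested. The other 9 genes were added as its family and receptors, with results of these data known.

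The libraries came from U2OS, an established human osteosarcoma line, carrying a construct in the retroviral overexpression vector MigR1. The EV line held the empty vector, the WT line wild-type DNMT3A and the MUT line a mutant DNMT3A, which the series text names R882C and the sample labels R882H. DNMT3A is a DNA methyltransferase that writes methyl groups at CG dinucleotides. Each line was sampled untreated (a vehicle control in the series text) or exposed to cytarabine at 10 µM for 24 h. Cytarabine is a nucleoside analogue that stops DNA synthesis. Every one of the 6 groups has 3 biological replicates. All cells carried the vector. The labels name 1 line for each construct and do not say whether it is a clone or a pool, so a construct and its line cannot be told apart. In bulk RNA, a change in the share of cells that express a gene and a change in RNA per cell cannot be told apart either.

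Class 3 semaphorins are secreted guidance proteins. Most of them bind a neuropilin, which holds the ligand, and a type A plexin, which passes the signal on to small GTPases and the cytoskeleton, whereas SEMA3E binds PLXND1 without a neuropilin. They are best known for steering axons and blood vessels, and in bone SEMA3A acts on both osteoblasts and osteoclasts. Neuropilins also serve the VEGF family, so VEGF ligands and semaphorins compete for them.

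The stretches before the start of 4 ligand genes are shown because SEMA3F, SEMA3B and SEMA3G are the tested class 3 ligand genes that rose with cytarabine in all 3 lines (SEMA3A was not tested), and because SEMA3E lies beside SEMA3A. They are RefSeq promoter windows of build GRCh38.p14, read 5′ to 3′ on the strand of the gene, without bases inside the annotated gene, from the entry nearest to the start of the gene. Capitals mark each CG, the dinucleotide that DNMT3A methylates. Methylation itself was not measured in these libraries.
SEMA3F, chr3:50154808-50155044, plus strand: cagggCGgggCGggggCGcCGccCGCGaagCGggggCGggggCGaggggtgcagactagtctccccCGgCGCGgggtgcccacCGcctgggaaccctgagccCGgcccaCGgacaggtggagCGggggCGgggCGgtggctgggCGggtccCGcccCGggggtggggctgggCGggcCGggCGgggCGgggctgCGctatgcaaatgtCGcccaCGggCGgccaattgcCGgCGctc
SEMA3B, chr3:50267402-50267557, plus strand: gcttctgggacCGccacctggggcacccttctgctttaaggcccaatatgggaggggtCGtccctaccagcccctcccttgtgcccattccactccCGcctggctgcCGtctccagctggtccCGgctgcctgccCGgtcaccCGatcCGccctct
SEMA3G, chr3:52445104-52445353, minus strand: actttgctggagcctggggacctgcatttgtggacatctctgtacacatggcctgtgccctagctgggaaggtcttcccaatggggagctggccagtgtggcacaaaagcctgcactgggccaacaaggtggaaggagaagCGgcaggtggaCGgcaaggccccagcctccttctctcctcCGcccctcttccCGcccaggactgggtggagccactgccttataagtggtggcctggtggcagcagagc
SEMA3E, chr7:83649140-83649389, minus strand: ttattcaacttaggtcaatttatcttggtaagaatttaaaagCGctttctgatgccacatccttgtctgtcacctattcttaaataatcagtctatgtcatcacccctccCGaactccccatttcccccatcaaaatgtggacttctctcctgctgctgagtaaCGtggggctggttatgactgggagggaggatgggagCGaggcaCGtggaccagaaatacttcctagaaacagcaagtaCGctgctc

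The 4 stretches differed widely in CG. SEMA3F held 31 CG in 237 bases, SEMA3B 8 in 156, SEMA3E 6 in 250 and SEMA3G 4 in 250. The full 250-base windows of SEMA3F and SEMA3B held 34 and 16 CG, and those of SEMA3E and SEMA3G are printed whole. In their full windows, the other genes with an entry held 2 (SEMA3C), 13 (SEMA3D), 29 (NRP2), 41 (PLXND1) and 46 (PLXNA1) CG. The median was 11 over 34943 windows of that length. The windows of NRP2 and PLXNA1 lie wholly inside the gene as GENCODE annotates it, so they do not show the bases before it. The GC box GGGCGG, which itself contains a CG and was searched on both strands, was found 12 times in the full window of SEMA3F, 9 times in that of PLXND1, 5 in PLXNA1, 4 in SEMA3B, 3 in NRP2 and 2 in SEMA3G, and 42.5% of all windows held it. The shorter stretches printed hold all 12 of those of SEMA3F and 1 of those of SEMA3B. The letters TATAAA and the AP-1 motif TGANTCA, held by 10.8% and 6.59% of all windows, were in none of the windows of these genes. SEMA3A and NRP1 had no entry.

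Library totals ran from 15.4 to 21.9 M estimated counts. The level of DNMT3A separated the 3 lines, but it does not tell a mutant from a wild-type sequence. It is given in CPM (counts scaled to a library size of 1000000). EV libraries held 26.2 to 27.5 untreated and 45.5 to 49.6 treated, and WT libraries 129 to 139 and 166 to 182. MUT libraries held 254 to 615 untreated and 515 to 532 treated. MUT thus differed from WT in the level of DNMT3A as well as in the construct, and these cannot be told apart. The untreated MUT libraries stood apart from one another, with a biological coefficient of variation of 0.216 against 0.0398 to 0.133 in the other groups, and replicate 3 of them had the DNMT3A level of 254. Of 10 osteoblast lineage markers, 8 were in the table and summed to 1124 to 1418 CPM by group, while IBSP and SP7 were not in it and BGLAP and DLX5 stayed under 1 CPM. Markers of other cell types summed to 4.46 to 14.8 CPM (endothelial), 94.7 to 140 (neuronal) and 485 to 858 (epithelial). Of the 6 endothelial markers, PECAM1 and ESAM were under 1 CPM in every group and the other 4 were not. The sum of the 6 went from 5.45 to 9.75 CPM with cytarabine in EV, from 4.46 to 9.71 in WT and from 7.28 to 14.8 in MUT. The epithelial and neuronal sums were lower in the treated than in the untreated group of each line, and the epithelial sum was lower in both WT groups (485 and 517) than in the other 4 (715 to 858). The part of these markers in the results that follow was not tested.

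Per kilobase of annotated exon, the level of the members fell into 3 ranges. SEMA3C (median 19.2 CPM per kilobase over the 18 libraries), PLXNA1 (18.1) and PLXND1 (13.4) were highest. SEMA3E (4.77), SEMA3F (3.00), NRP1 (2.74), SEMA3A (1.91) and SEMA3B (1.54) followed, and SEMA3D (0.146) and NRP2 (0.0463) were lowest. Neighbours in this order overlapped in their range over the libraries, except PLXND1 with SEMA3E and SEMA3B with SEMA3D, where the order steps down from the first to the second range and from the second to the last.

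With cytarabine SEMA3B, SEMA3F, NRP1 and PLXND1 rose in every line, SEMA3C in MUT, SEMA3E in EV and MUT, and SEMA3D fell in WT. Over all tested genes, 18.9% rose and 16.4% fell in all 3 lines. Of the 9 members other than SEMA3A, 5 rose and none fell in EV, where 49.1% of all tested genes changed (26.1% rose and 22.9% fell). In WT 4 rose and 1 fell, beside 49.0% of all genes changed (26.3% and 22.7%). In MUT 6 rose and none fell, beside 56.3% (30.4% and 25.9%). The total counts of called members, 5, 5 and 6 of 9, were thus near the background in each line. The absence of falls in EV and MUT in edgeR's quasi-likelihood test held at an unadjusted p under 0.05 (0 lower) and with DESeq2 (0 lower). It did not hold in MUT without untreated MUT replicate 3, where edgeR called PLXNA1 lower (-0.18, adjusted p 0.0103). In EV the count of called members was 3 without treated EV replicate 2 or untreated EV replicate 1. The median log2 fold change of the 9 was 0.26 in EV, 0.28 in WT and 0.38 in MUT, beside 0.05, 0.03 and 0.05 over all tested genes.

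Between untreated lines, 2 members were higher and 2 lower in WT than in EV, where 11.7% of all genes differed (4.30% higher and 7.36% lower). Untreated MUT had 1 member higher and 2 lower than EV, beside 19.9% of all genes (9.88% and 10.0%). Against WT, untreated MUT had 2 higher and 4 lower, beside 21.2% (11.7% and 9.54%). After cytarabine WT had 2 members higher and 2 lower than EV, beside 16.5% of all genes (7.41% and 9.12%). Treated MUT had 2 higher and 1 lower than EV, beside 14.0% (6.85% and 7.13%), and the same counts against WT, beside 19.8% (10.4% and 9.48%). These comparisons share libraries in pairs, so their values stand side by side and are not independent. Without replicate 3 of the untreated MUT libraries, 5 in place of 3 members differed between untreated MUT and EV, the additions being PLXNA1 and PLXND1.

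The cytarabine effect differed between lines for 4 of the 9 members. The difference of effects is the log2 fold change with cytarabine in one line minus that in another. It passed the threshold for SEMA3B between WT and EV, with the lower value in WT. This is 1 of 9, beside 0.285% of all genes (0.143% higher and 0.143% lower). It passed for NRP1 between MUT and EV, with the higher value in MUT, again 1 of 9, beside 0.214% (0.154% and 0.0604%). Between MUT and WT it passed for SEMA3B, SEMA3C and SEMA3E, all with the higher value in MUT, 3 of 9 beside 1.00% (0.510% and 0.494%). Several of these calls were close to the threshold, as given for each gene.

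**Figure D1:**
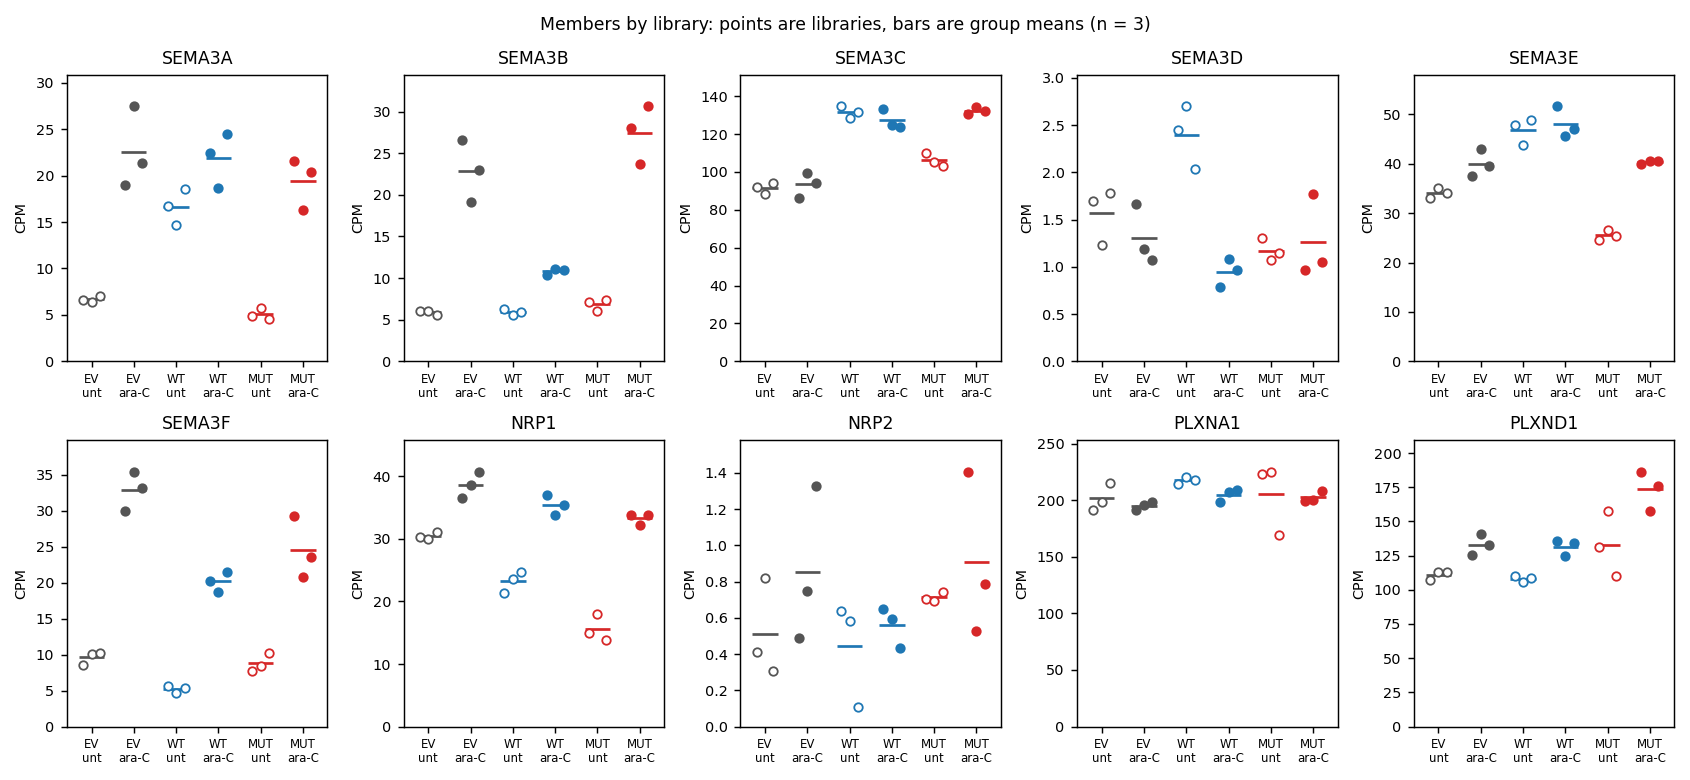
Level of each of the 10 genes in CPM (vertical axes, linear, from 0) in the 18 libraries, by line, untreated (unt, open points) or treated with cytarabine (ara-C, filled points), with bars at the group means of 3 libraries. SEMA3A runs from 4.51 to 7.07 in untreated EV and MUT and from 14.7 to 27.5 elsewhere, and SEMA3B in treated WT, 10.4 to 11.1, lies between the untreated libraries and the treated libraries of the other lines.

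SEMA3A, the founding ligand of the class, lies on chromosome 7 from 83955777 to 84492725 on the minus strand. In untreated cells it read 6.60, 6.43 and 7.07 CPM in EV (6.70 ± 0.333, mean ± SD, n = 3), 16.8, 14.7 and 18.6 in WT (16.7 ± 1.97) and 4.91, 5.79 and 4.51 in MUT (5.07 ± 0.652). Every untreated WT library was above every untreated EV and MUT library, and EV did not overlap MUT. After cytarabine the values were 19.0, 27.5 and 21.3 in EV (22.6 ± 4.38), 22.4, 18.7 and 24.5 in WT (21.9 ± 2.92) and 21.6, 16.3 and 20.4 in MUT (19.4 ± 2.76). The 3 treated groups overlapped one another.

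As a description, the log2 fold change of SEMA3A with cytarabine was 1.75 in EV, 0.39 in WT and 1.94 in MUT. The lowest treated WT library, 18.7 CPM, was next to the highest untreated one, 18.6, so in WT the groups met without overlapping. Ordered by mean level, untreated MUT was lowest, then untreated EV, untreated WT, treated MUT, treated WT and treated EV. The first 3 groups of this order did not overlap one another, and each group from untreated WT upward overlapped the next. Between untreated lines SEMA3A differed by 1.31 (WT against EV), -0.40 (MUT against EV) and -1.72 (MUT against WT) on the log2 scale, and between treated lines by -0.04, -0.21 and -0.17 in the same order. These values rest on 79 to 506 estimated counts of SEMA3A per library.

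SEMA3B, a secreted ligand described as a p53 target and a candidate tumour suppressor, rose with cytarabine in all 3 lines and least in WT. The gene lies on chromosome 3 from 50267558 to 50277547 on the plus strand. Untreated levels were 6.02, 6.08 and 5.60 CPM in EV, 6.28, 5.50 and 5.94 in WT and 7.17, 6.04 and 7.37 in MUT, and no line difference passed the test. Treated levels were 26.6, 19.1 and 23.0 in EV, 10.4, 11.1 and 11.0 in WT and 28.1, 23.7 and 30.6 in MUT. All treated libraries exceeded all untreated ones, and treated WT lay below every treated EV and MUT library.

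The rise of SEMA3B on the log2 scale was 1.96 (SE 0.131, adjusted p 1.07e-09) in EV, 0.87 (SE 0.132, adjusted p 2.04e-05) in WT and 2.00 (SE 0.127, adjusted p 3.12e-10) in MUT. The effect was smaller in WT than in EV, with a difference of -1.09 (SE 0.186, adjusted p 0.0165), a call that was lost in 5 fits that each left out 1 library. These were untreated EV replicate 1 (adjusted p 0.051) or 3 (0.0633), treated WT replicate 1 (0.0507) or 2 (0.0509), and untreated WT replicate 1 (0.0565). The effect in MUT exceeded that in WT by 1.12 (SE 0.183, adjusted p 0.00615), and this held in all 20 alternative fits, with adjusted p up to 0.0277. For MUT against EV the difference of effects was 0.04 with a 95% interval of -0.34 to 0.42. Among treated lines SEMA3B was lower in WT than in EV, -1.08 (adjusted p 4.63e-06), and higher in MUT than in WT, 1.34 (adjusted p 2.61e-07).

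SEMA3F, which signals through NRP2 and type A plexins, rose in all 3 lines, from a lower base in WT. The gene occupies chromosome 3 from 50155045 to 50189076 on the plus strand. The untreated libraries read 8.59, 10.1 and 10.2 CPM in EV, 5.59, 4.66 and 5.33 in WT and 7.72, 8.43 and 10.2 in MUT, and the treated libraries 30.0, 35.4 and 33.1 in EV, 20.2, 18.8 and 21.5 in WT and 29.2, 20.8 and 23.5 in MUT. Treated and untreated libraries were separate within each line, and WT was below EV in both states. The effects were 1.77 (SE 0.130, adjusted p 3.10e-09) in EV, 1.95 (SE 0.139, adjusted p 1.73e-09) in WT and 1.48 (SE 0.131, adjusted p 1.76e-08) in MUT. No difference between them passed after adjustment, with unadjusted 95% intervals of -0.21 to 0.58 (WT minus EV), -0.67 to 0.10 (MUT minus EV) and -0.87 to -0.07 (MUT minus WT).

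Untreated WT had less SEMA3F than EV, -0.89 (adjusted p 3.61e-04), and MUT more than WT, 0.75 (adjusted p 0.00117). After treatment WT remained lower than EV, -0.70 (adjusted p 4.97e-04). Treated MUT was also lower than EV, -0.42 (adjusted p 0.0242), but not without treated EV replicate 2 (adjusted p 0.091) or 3 (0.074) or without treated MUT replicate 2 (0.138) or 3 (0.0933). The antisense gene SEMA3F-AS1 overlaps SEMA3F with a mean of 17.7 counts per library, and without strand reads of the overlap cannot be assigned to either gene.

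SEMA3G, the remaining ligand of the class and not among the 10 genes, had the lines in the same order of mean level as SEMA3F, untreated and treated. The order of the lines by size of the cytarabine effect was not the same. It rose from 4.62, 4.97 and 4.30 to 20.2, 15.4 and 19.2 CPM in EV, from 2.94, 2.33 and 2.31 to 9.60, 9.89 and 9.72 in WT and from 4.66, 4.21 and 2.80 to 15.2, 14.2 and 13.4 in MUT. Its log2 fold changes were 1.98 (SE 0.154), 1.94 (SE 0.166) and 1.87 (SE 0.156), all past the threshold. Like SEMA3F it was lower in WT than in EV, -0.87 (adjusted p 0.00256) untreated and -0.91 (adjusted p 1.84e-04) treated.

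SEMA3E, the ligand of PLXND1, rose with cytarabine in EV and MUT and differed between all 3 untreated lines. The gene is on chromosome 7 from 83363238 to 83649114 on the minus strand, beside SEMA3A. The untreated libraries held 33.1, 35.1 and 34.1 CPM in EV, 48.0, 43.8 and 48.9 in WT and 24.5, 26.5 and 25.5 in MUT, and the treated libraries 37.6, 43.0 and 39.6 in EV, 51.6, 45.6 and 47.1 in WT and 40.0, 40.6 and 40.7 in MUT. Untreated WT was highest and untreated MUT lowest without overlap, whereas treated EV and MUT overlapped. SEMA3E is the member whose log2 CPM ran most nearly parallel to SEMA3A over the 18 libraries (r = 0.873).

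The SEMA3E effect of cytarabine was 0.67 (SE 0.0725, adjusted p 2.65e-07) in MUT and 0.23 (SE 0.0717, adjusted p 0.0118) in EV. In WT it was 0.04, with a 95% interval of -0.11 to 0.18. The EV call was lost under the authors' scaling (log2 fold change 0.16, adjusted p 0.0796), without treated EV replicate 2 (0.0677) and without untreated EV replicate 1 (0.0533). The effect in MUT exceeded that in WT by 0.63 (SE 0.101, adjusted p 0.00586), with adjusted p up to 0.0265 over the 20 alternatives. For MUT minus EV the difference was 0.44 (adjusted p 0.0757). It passed with DESeq2 (0.0233), without treated EV replicate 2 (0.0466) and without untreated MUT replicate 1 (0.0439) or 2 (0.0485).

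Untreated WT exceeded EV in SEMA3E by 0.46 (adjusted p 2.07e-04), and MUT was lower than EV, -0.42 (adjusted p 5.64e-04), and than WT, -0.88 (adjusted p 7.80e-08). The untreated libraries enter both this comparison and the effects, so the low untreated MUT level and the large MUT effect are not independent observations. After treatment WT was still above EV, 0.27 (adjusted p 0.0133), and MUT below WT, -0.25 (adjusted p 0.0149). The first of these treated calls was lost without treated EV replicate 1 (adjusted p 0.0632) or treated WT replicate 1 (0.0862), and the second without treated MUT replicate 1 (0.057) or treated WT replicate 1 (0.0974).

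SEMA3C, a ligand that uses neuropilins with PLXND1 or type A plexins, was the most abundant ligand and changed little. Its gene spans chromosome 7 from 80742538 to 80922360 on the minus strand. Levels were 92.1, 88.5 and 94.0 CPM in untreated EV, 135, 128 and 132 in WT and 110.3, 105 and 103 in MUT. With cytarabine they were 86.5, 99.5 and 94.3 in EV, 133, 125 and 124 in WT and 130.5, 134 and 132 in MUT. Only the MUT libraries separated by treatment, rising to the level of WT. The effect in MUT was 0.32 (SE 0.0616, adjusted p 2.12e-04), and in EV and WT the 95% intervals were -0.10 to 0.16 and -0.18 to 0.08.

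WT exceeded EV in SEMA3C both untreated, 0.52 (adjusted p 9.92e-06), and treated, 0.45 (adjusted p 5.41e-05). Untreated MUT lay between them, -0.31 (adjusted p 0.00146) against WT and 0.22 (adjusted p 0.0196) against EV, and treated MUT exceeded EV, 0.50 (adjusted p 2.33e-05). The untreated call against EV was lost when only these 2 groups were fitted (adjusted p 0.155), without untreated EV replicate 1 (0.0547) or 2 (0.0916) and without untreated MUT replicate 1 (0.0575). The effect in MUT exceeded that in WT by 0.37 (SE 0.0869, adjusted p 0.0474), and 15 of 20 alternatives ended this call. Leaving out any of the 3 treated WT, 3 untreated WT or 3 treated MUT libraries did so (adjusted p 0.0647 to 0.146), as did leaving out untreated MUT replicate 3 (0.0503). Leaving out an EV library, which here only sets the spread, ended it for 4 of 6 (0.0704 to 0.0763).

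SEMA3D, known from heart and vessel patterning, was scarce, with 17 to 51 counts per library, and fell with cytarabine in WT. It spans chromosome 7 from 84995553 to 85186856 on the minus strand, on the other side of SEMA3A. In WT it went from 2.45, 2.70 and 2.03 CPM to 0.789, 1.08 and 0.967, without overlap, and its log2 fold change was -1.34 (SE 0.287, adjusted p 6.86e-04). EV read 1.69, 1.23 and 1.78 untreated and 1.66, 1.19 and 1.07 treated, and MUT 1.30, 1.07 and 1.14 and 0.967, 1.77 and 1.05, with overlap in both lines and 95% intervals of -0.87 to 0.34 and -0.52 to 0.71. The difference between effects did not pass (MUT minus WT 1.44 (adjusted p 0.0951)). Untreated MUT was lower than untreated WT, -1.02 (adjusted p 0.0143), but not without untreated WT replicate 2 (adjusted p 0.0697).

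The 4 class 3 semaphorin genes of chromosome 7 lie within 80742538 to 85186856, with 3 other tested genes between them. In untreated cells, PCLO, which encodes a presynaptic scaffold protein, was higher in WT than in EV, 0.76 (adjusted p 1.25e-06), and lower in MUT than in WT, -0.75 (adjusted p 1.42e-06). CACNA2D1, a calcium channel subunit, differed the same way, 0.45 (adjusted p 3.36e-04) and -0.59 (adjusted p 1.71e-05). Thus 2 of these 3 genes were called for WT against EV, beside 11.7% of all genes, and 2 of 3 for MUT against WT, beside 21.2%. In MUT against EV none was called in edgeR with all libraries, and 1 without untreated MUT replicate 3. The remaining gene is HNRNPA1P8, a pseudogene by its name, which can share reads with its parent gene. Among the 6 protein-coding genes of the stretch, all on the minus strand, untreated WT was above EV and MUT below WT in every case, although SEMA3D did not pass for WT against EV and SEMA3A was not tested. SEMA3A was chosen for its line-dependent level, and the other semaphorins here were added with results known. The shared direction is therefore a description, and the share of all genes with these directions is not given here.

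**Figure D2:**
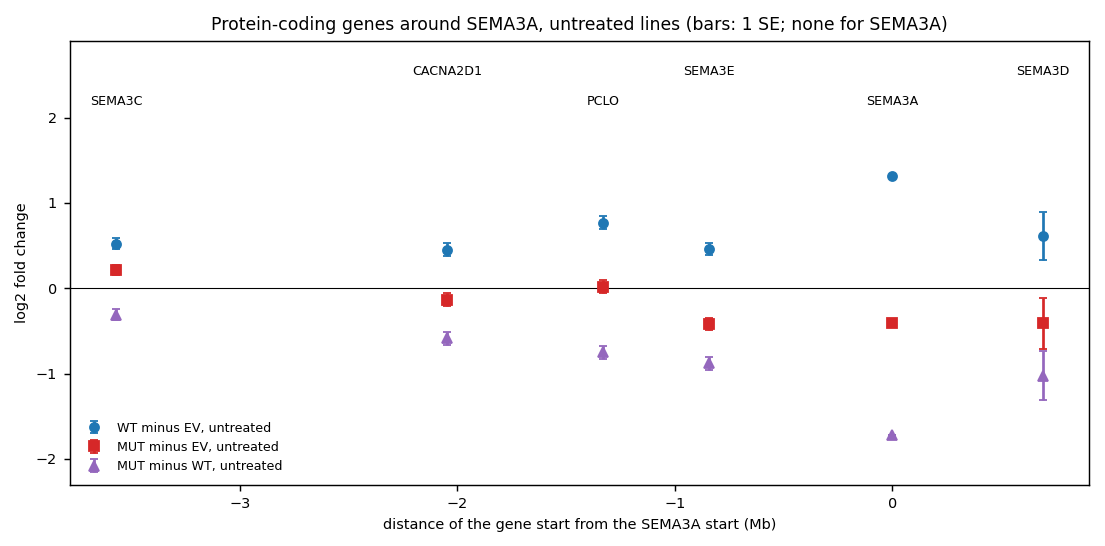
Log2 fold change between untreated lines (vertical axis) of the 6 protein-coding genes from SEMA3C to SEMA3D on chromosome 7, at the distance of each gene start from that of SEMA3A in megabases. Bars are 1 SE, none for SEMA3A, squares are MUT minus EV, and all circles (WT minus EV) are above 0 while all triangles (MUT minus WT) are below it. SEMA3A, which was chosen for its line-dependent level, is farthest out at 1.31 and -1.72.

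On chromosome 3, SEMA3F, SEMA3B and SEMA3G lie within 50155045 to 52445086 with 51 other tested genes between them. Of these, 3, 2 and 8 differed between untreated lines (first WT with EV, then MUT with EV, then MUT with WT), which are 5.88%, 3.92% and 15.7% of them, beside 11.7%, 19.9% and 21.2% of all genes. Between treated lines, 5, 8 and 18 of the 51 differed, in the same order. These are 9.80%, 15.7% and 35.3%, beside 16.5%, 14.0% and 19.8% of all genes. The 18 for treated MUT with WT were 2 higher and 16 lower, beside 10.4% and 9.48% of all genes. With cytarabine 24, 26 and 32 of the 51 changed in EV, WT and MUT, which are 47.1%, 51.0% and 62.7% beside 49.1%, 49.0% and 56.3% of all genes. Their median log2 fold changes were 0.06, 0.12 and -0.02. CACNA2D2, DNAH1 and PARP3 had the largest differences between untreated lines there, -1.33 (adjusted p 0.00172) for MUT against EV, and -1.04 (adjusted p 0.0186) and -0.65 (adjusted p 0.00291) for MUT against WT. Leaving out 1 library moved the 3 counts between untreated lines between 1 and 2, 2 and 5, and 5 and 12. The DNAH1 call was lost when only these groups were fitted (adjusted p 0.112), without untreated MUT replicate 3 (0.0827) or untreated WT replicate 3 (0.113).

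NRP1, the neuropilin that binds SEMA3A, rose with cytarabine in every line and most in MUT. Its gene is on chromosome 10 from 33177492 to 33336263 on the minus strand. Its untreated levels were 30.3, 30.0 and 31.0 CPM in EV, 21.3, 23.6 and 24.7 in WT and 15.0, 17.9 and 13.9 in MUT, without overlap between lines. Treated levels were 36.6, 38.6 and 40.8 in EV, 37.0, 33.8 and 35.5 in WT and 33.8, 32.2 and 33.9 in MUT, a narrower range in which EV and WT overlapped, as did WT and MUT. The order of the lines was thus EV, WT, MUT from high to low in untreated cells, unlike that of SEMA3A and SEMA3E, where WT was highest.

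The NRP1 effects were 0.34 (SE 0.0845, adjusted p 0.00218) in EV, 0.61 (SE 0.0854, adjusted p 8.00e-06) in WT and 1.10 (SE 0.0884, adjusted p 5.51e-09) in MUT. The effect in MUT exceeded that in EV by 0.75 (SE 0.122, adjusted p 0.0166). This call was lost when only the 4 groups involved were fitted (adjusted p 0.131), without untreated EV replicate 3 (0.0525) and without treated MUT replicate 3 (0.0555). For MUT minus WT the difference was 0.49 (adjusted p 0.0607), which passed with DESeq2 (0.0228), among genes with a mean of at least 50 counts (0.0471) and without untreated MUT replicate 2 (0.0132). Untreated NRP1 was lower in WT than in EV, -0.39 (adjusted p 0.00483), and lower in MUT than in EV, -0.97 (adjusted p 7.27e-07), and in WT, -0.58 (adjusted p 1.69e-04). No treated line comparison passed after adjustment (unadjusted 95% intervals -0.30 to 0.05 for WT against EV, -0.39 to -0.04 for MUT against EV, where the adjusted p was 0.0952 and, without untreated MUT replicate 2 or 3, 0.0292 or 0.0359, and -0.26 to 0.08 for MUT against WT).

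NRP2, the neuropilin preferred by SEMA3F, was near the limit of detection, with 2 to 32 counts per library. It lies on chromosome 2 from 205681990 to 205798134 on the plus strand, and its level ran from 0.110 to 1.41 CPM with overlap between treated and untreated libraries in each line. At this depth no difference was detectable: the 95% intervals of the cytarabine effect were -0.38 to 1.87 in EV, -0.85 to 1.48 in WT and -0.71 to 1.41 in MUT.

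Of the plexins, PLXNA1, a signalling receptor for SEMA3A and other ligands, was abundant and nearly level. The gene spans chromosome 3 from 126988594 to 127037393 on the plus strand. It read 191, 199 and 215 CPM in untreated EV, 215, 220.4 and 217 in WT and 223, 225 and 169 in MUT, and 191, 196 and 198 in EV, 198, 207 and 209 in WT and 199, 200.1 and 208 in MUT with cytarabine. Untreated MUT replicate 3, at 169, was the lowest library, and the other 17 lay between 191 and 225. No comparison passed, and the 95% intervals of the cytarabine effect were -0.22 to 0.13 in EV, -0.26 to 0.09 in WT and -0.20 to 0.15 in MUT. Without that library cytarabine lowered PLXNA1 in MUT (-0.18, adjusted p 0.0103), and untreated MUT exceeded EV (0.17, 0.0322).

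PLXND1, the receptor of SEMA3E, rose slightly with cytarabine and was highest in treated MUT. It is found on chromosome 3 from 129555175 to 129606819 on the minus strand. Levels were 107, 113 and 113 CPM in untreated EV, 110.3, 106 and 108 in WT and 131, 157 and 110.1 in MUT, and 125, 141 and 133 in EV, 135, 125 and 134 in WT and 186, 158 and 176 in MUT after treatment. Treated and untreated libraries were separate in each line, in MUT only narrowly (157 against 158), and all treated MUT libraries were above all treated EV and WT libraries.

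The log2 fold change of PLXND1 was 0.26 (SE 0.0956, adjusted p 0.0301) in EV, 0.28 (SE 0.0954, adjusted p 0.0194) in WT and 0.38 (SE 0.0949, adjusted p 0.00196) in MUT. The EV call was lost without treated EV replicate 2 or 3 or any single untreated EV library (adjusted p 0.0566 to 0.106), under the authors' scaling (0.101) and without the low-count filter (0.0513). The WT call was lost without treated WT replicate 1 (0.0641) or 3 (0.056), without untreated WT replicate 2 (0.06) and under the authors' scaling (0.052). Treated MUT exceeded EV, 0.38 (adjusted p 0.0107), and WT, 0.40 (adjusted p 0.00537), the former not without treated MUT replicate 1 (adjusted p 0.059). Untreated MUT exceeded WT, 0.30 (adjusted p 0.0321), a call lost when only these groups were fitted (0.208), without untreated MUT replicate 2 (0.0788) and without any single untreated WT library (0.0602 to 0.0811). Untreated MUT against EV was 0.26 (adjusted p 0.0638). It passed without untreated MUT replicate 3 (0.40, adjusted p 0.00165), and also under RLE (0.0386), upper-quartile (0.0496) or the authors' scaling (0.0402), with DESeq2 (0.0221), among genes with a mean of at least 50 counts (0.0357) and without untreated WT replicate 2, a library outside the comparison (0.0486).

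**Figure D3:**
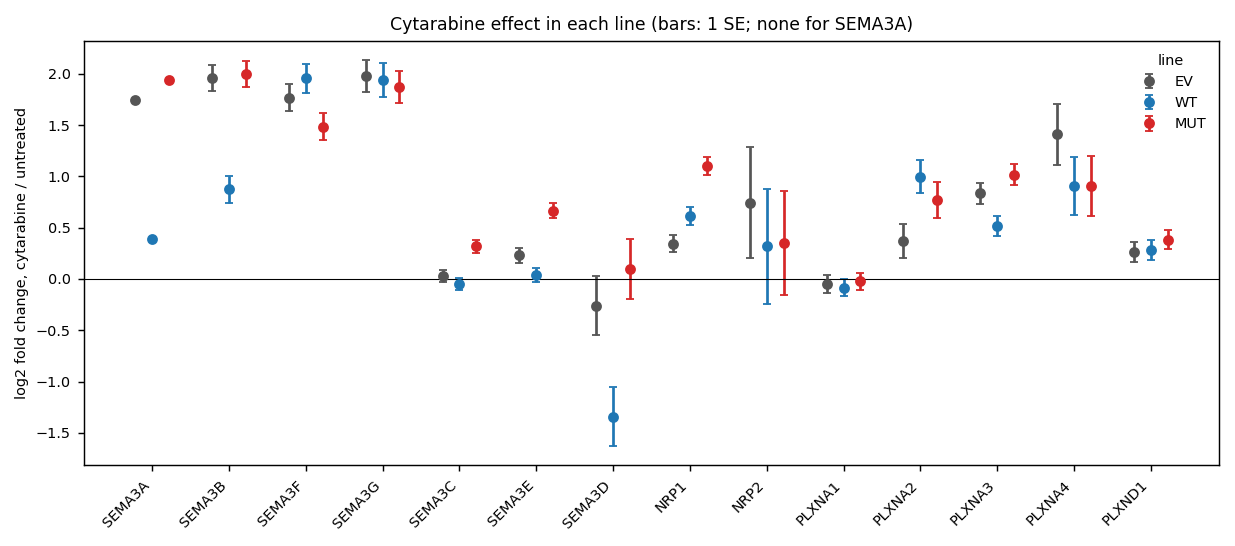
Log2 fold change with cytarabine (vertical axis) of the 10 genes and of SEMA3G, PLXNA2, PLXNA3 and PLXNA4 in the EV, WT and MUT lines, with bars of 1 SE, none for SEMA3A. SEMA3B, SEMA3F and SEMA3G lie between 0.87 and 2.00 in every line, PLXNA1 stays within 0.09 of 0, and SEMA3D in WT, at -1.34, is the lowest value.

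Of the 3 other type A plexins, PLXNA3 and PLXNA4 rose with cytarabine in every line and PLXNA2 in WT and MUT. PLXNA3 went from 33.4, 30.5 and 35.4 to 62.4, 57.6 and 57.0 CPM in EV, from 41.7, 43.3 and 37.3 to 58.1, 56.2 and 60.5 in WT and from 29.9, 28.2 and 21.2 to 52.5, 51.1 and 57.2 in MUT, log2 fold changes of 0.83 (adjusted p 1.16e-06), 0.52 (adjusted p 2.06e-04) and 1.02 (adjusted p 7.64e-08). PLXNA2 rose in WT, 1.00 (adjusted p 5.18e-05), and MUT, 0.77 (adjusted p 9.29e-04), and was 0.37 (adjusted p 0.0742) in EV. In EV PLXNA2 passed under upper-quartile scaling (0.0363), among genes with a mean of at least 50 counts (0.04), with only the 2 groups fitted (0.0415), and without treated (0.0331) or untreated (0.0386) EV replicate 3. PLXNA4 was scarce, at 0.628 to 2.52 CPM, and rose by 1.41 (adjusted p 5.64e-04) in EV, 0.91 (adjusted p 0.0117) in WT and 0.91 (adjusted p 0.0125) in MUT. The MUT call of PLXNA4 was lost without untreated MUT replicate 3 (adjusted p 0.0789), without treated MUT replicate 2 (0.0504) and with only the 2 groups fitted (0.0723). Untreated PLXNA2 was lower in MUT than in EV, -0.69 (adjusted p 0.0101), and in WT, -0.56 (adjusted p 0.0288). Untreated PLXNA3 was lower in MUT than in EV, -0.32 (adjusted p 0.0337). Treated WT exceeded EV in PLXNA2, 0.50 (adjusted p 0.0377). Each of these calls was lost without some single libraries. The PLXNA3 effect in MUT minus that in WT was 0.50 (adjusted p 0.0878). It passed with DESeq2 (0.036) and without untreated MUT replicate 1 (0.0217) or 2 (0.0488).

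The wider pathway list held 56 genes, of which 52 were tested. It covers the 4 ligands and plexins just named, co-receptors and VEGF family partners, plexin signalling and proteases that act on class 3 semaphorins. With cytarabine 21 rose and 9 fell in EV, 22 and 10 in WT, and 26 and 10 in MUT, which are 57.7%, 61.5% and 69.2% of the 52 beside 49.1%, 49.0% and 56.3% of all genes. The medians were 0.17, 0.20 and 0.25, beside 0.05, 0.03 and 0.05 over all genes. Of the 52, 18 rose and 7 fell in all 3 lines, which are 34.6% and 13.5% beside 18.9% and 16.4% of all genes. Those that rose include SEMA3G, PLXNA3 and PLXNA4, the collapsin response mediators CRMP1, DPYSL2, DPYSL4 and DPYSL5, and the kinases CDK5, FYN and PAK1.

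Among the 12 tested co-receptors and partners, EV and WT each had 5 higher and 1 lower with cytarabine, and MUT 7 and 1, which are 50%, 50% and 66.7% beside 49.1%, 49.0% and 56.3% of all genes. PGF, a VEGF family ligand of neuropilin 1 and FLT1, had the largest rise in EV and WT, from 8.88, 10.2 and 10.2 to 54.9, 49.8 and 49.9 CPM in EV, from 4.95, 5.93 and 5.50 to 47.6, 41.3 and 48.9 in WT and from 9.28, 6.54 and 11.1 to 44.2, 39.0 and 39.6 in MUT. Its log2 fold changes were 2.40 (adjusted p 1.07e-10), 3.07 (adjusted p 6.07e-12) and 2.18 (adjusted p 1.47e-10). FLT1, its receptor, rose by 2.26 (adjusted p 1.37e-05) in EV, 2.76 (adjusted p 1.84e-06) in WT and 3.24 (adjusted p 7.87e-07) in MUT, the largest rise of the list in MUT. It was scarce in untreated libraries, at 0.150, 0.126 and 0.571 CPM in MUT (3, 2 and 10 counts) and 0.476 to 1.05 CPM in EV and WT (9 to 17 counts). The VEGF ligands VEGFA, VEGFB and VEGFC passed in no line. PGF was also the 1 gene of the list whose effect differed between lines, with a difference of -0.89 (SE 0.189, adjusted p 0.0282) for MUT minus WT. That call was lost whenever any single library of treated MUT, treated WT or untreated WT was left out (adjusted p 0.0515 to 0.0893) and with only the 4 groups fitted (0.0863). In edgeR no gene of the list passed when the effect in WT or in MUT was set against that in EV. For these its unadjusted p was under 0.05 for 5 higher and 4 lower, and 4 higher and 5 lower genes, and DESeq2 called 1 and 4. Without untreated MUT replicate 1 or 2, edgeR called 5 and 3 when MUT was set against EV, and 5 and 4 when it was set against WT.

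Among the 31 tested signalling genes, 12 rose and 6 fell in EV, 12 and 7 in WT, and 14 and 7 in MUT, which are 58.1%, 61.3% and 67.7% beside the same shares of all genes. RAC1, a small GTPase that plexin signalling works through, fell in each line, with log2 fold changes of -0.53 (adjusted p 7.82e-06) in EV, -0.80 (adjusted p 4.31e-08) in WT and -0.92 (adjusted p 4.75e-09) in MUT. CFL1, the actin-severing cofilin, fell likewise, -0.72 (adjusted p 1.04e-06), -0.64 (adjusted p 3.96e-06) and -0.96 (adjusted p 1.82e-08). RHOA, RAP1A and TRIO also fell in all 3 lines. CRMP1, which passes SEMA3A signals to the cytoskeleton, rose in each line and was lower in untreated MUT than in EV, -0.63 (adjusted p 1.15e-04), and WT, -0.82 (adjusted p 3.91e-06). Of the 5 proteases, PCSK5, a proprotein convertase, rose (1.16 (adjusted p 2.53e-07) in EV, 0.86 (adjusted p 6.37e-06) in WT and 1.26 (adjusted p 6.03e-08) in MUT). ADAMTS1, which can cleave SEMA3C, fell (-0.89 (adjusted p 4.65e-05), -0.72 (adjusted p 3.09e-04) and -0.84 (adjusted p 2.85e-05)), and its untreated level was higher in MUT than in EV, 0.92 (adjusted p 1.41e-04), and than in WT, 0.72 (adjusted p 8.89e-04).

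Between untreated lines the wider list had 3 genes higher and 6 lower in WT than in EV, 8 and 9 in MUT against EV, and 10 and 8 in MUT against WT, in all 17.3%, 32.7% and 34.6% of the 52 beside 11.7%, 19.9% and 21.2% of all genes. The first count fell from 9 to 5 without untreated EV replicate 2, and the last from 18 to 11 without untreated WT replicate 3. SEMA3G had the largest fall for WT against EV and PCSK5 the largest rise, 0.39 (adjusted p 0.0467). The PCSK5 call was lost when any of the 6 libraries was left out (adjusted p 0.0595 to 0.189). FLT1 had the largest fall for MUT against EV, -1.40 (adjusted p 0.0319). That call was lost without untreated EV replicate 1 (0.0589) or 3 (0.153) or untreated MUT replicate 1 (0.119) or 2 (0.106). PGF had the largest rise for MUT against WT, 0.73 (adjusted p 0.00183), with the untreated WT libraries, at 4.95 to 5.93 CPM, below the other untreated libraries, and this call was lost with only these groups fitted (adjusted p 0.0755). Between treated lines, 12, 14 and 17 of the 52 differed (WT against EV, MUT against EV, MUT against WT). These are 23.1%, 26.9% and 32.7%, beside 16.5%, 14.0% and 19.8% of all genes.

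Semaphorins and plexins of the other classes also rose with cytarabine. Of 15 tested genes of that list, 11 rose in EV, 12 in WT and 12 in MUT, beside 26.1%, 26.3% and 30.4% of all genes that rose, and none fell. At an unadjusted p under 0.05, edgeR had 0, 1 and 0 of them lower, and DESeq2 called 0, 1 and 1 lower. The medians of the 15 were 0.72, 0.57 and 0.73, and 10 of them (66.7%) rose in all 3 lines, beside 18.9% of all genes. PLXNB3, a plexin of class B, rose most, from 4.32, 4.03 and 4.80 to 23.5, 19.7 and 19.2 CPM in EV, from 6.87, 5.77 and 3.79 to 23.9, 24.2 and 26.1 in WT and from 4.51, 1.76 and 3.60 to 18.5, 16.3 and 17.8 in MUT, log2 fold changes of 2.25 (adjusted p 5.24e-08), 2.17 (adjusted p 4.38e-08) and 2.39 (adjusted p 2.11e-08).

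In untreated cells none of the 15 differed between WT and EV in edgeR, with 5 at an unadjusted p under 0.05 and 2 called by DESeq2. For MUT against EV 2 were higher and 1 lower, and for MUT against WT 3 and 3, which are 20.0% and 40.0% of the 15 beside 19.9% and 21.2% of all genes. Without untreated EV replicate 3 the first count was 1, without untreated MUT replicate 3 the second was 5, and without untreated WT replicate 3 the third was 3. SEMA6B, a membrane semaphorin, was higher in MUT than in EV, 0.39 (adjusted p 0.0177), and than in WT, 0.33 (adjusted p 0.0378). The first call was lost without untreated EV replicate 1 (0.0588) or 3 (0.0652), and the second without untreated MUT replicate 2 (0.0712) or 3 (0.0655) or untreated WT replicate 1 (0.117) or 3 (0.102). Both were also lost with only the groups compared fitted (0.0812 and 0.126). PLXNB2, another class B plexin, was lower in MUT than in EV, -0.36 (adjusted p 0.00176), but not with only these groups fitted (0.0829). PLXNB3 was lower in MUT than in WT, -0.72 (adjusted p 0.0331), a call lost without untreated MUT replicate 2 (0.145) or 3 (0.0506) or untreated WT replicate 1 (0.18) or 2 (0.108). That call was also lost with only these groups fitted (0.227). Between treated lines, 6 of the 15 differed for WT against EV, 2 higher and 4 lower, or 40.0% beside 16.5% of all genes. For treated MUT, 2 differed against EV and 3 against WT, or 13.3% and 20.0% beside 14.0% and 19.8%.

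The genes whose log2 CPM ran most nearly parallel to that of SEMA3A over the 18 libraries were found among the 13681 tested genes whose log2 CPM averaged 1 or more. They were PLXDC2, a plexin domain-containing membrane protein (r = 0.965), LAMB1, a laminin chain (0.946), FBLIM1, which links filamin to adhesions (0.943), IGF2, a growth factor (0.941), and PPP1R9A, an actin-binding protein (0.937). These values describe libraries that share 6 groups and treatments, and no p is given. By the means of the 6 groups in place of the 18 libraries, PLXDC2 ranked 3 and the others ranked between 29 and 66. PLXDC2 read 6.60, 6.02 and 6.09 CPM in untreated EV, 9.71, 9.21 and 9.68 in WT and 5.01, 6.86 and 3.94 in MUT, and 10.4, 14.2 and 12.1 in EV, 13.7, 12.1 and 13.6 in WT and 11.5, 8.95 and 11.0 in MUT with cytarabine. Its untreated lines had the same order as those of SEMA3A by mean, but EV and MUT overlapped. PLXDC2 was picked for its r with SEMA3A, so this likeness is no separate result.

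Of the members, SEMA3E came closest to SEMA3A (r = 0.873, rank 119 of 13681), followed by NRP1 (0.735), SEMA3B (0.630), SEMA3F (0.574), SEMA3C (0.460), PLXND1 (0.350) and PLXNA1 (0.0462). SEMA3D and NRP2 were too scarce for this ranking. SEMA3B and SEMA3F correlated at 0.885.

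**Figure D4:**
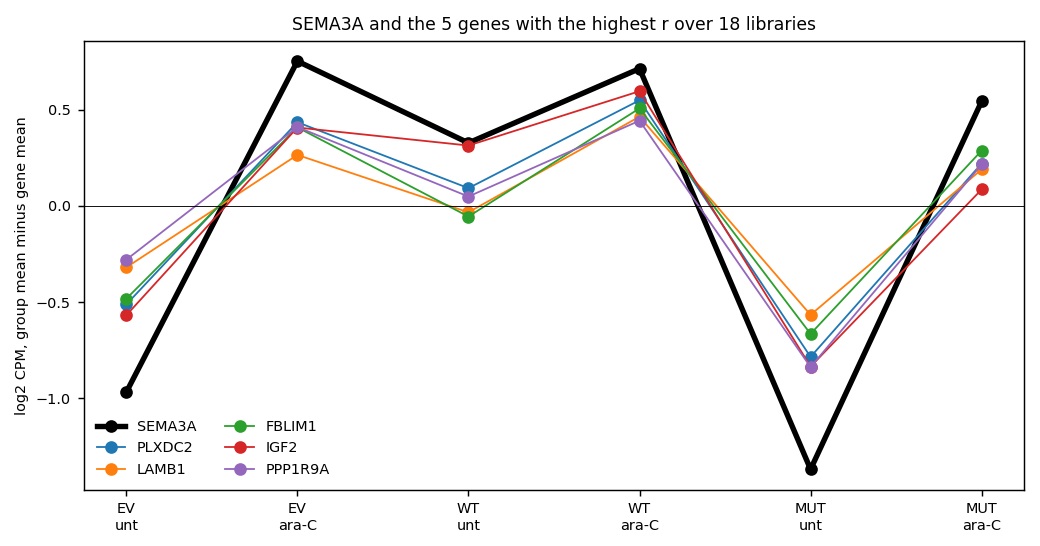
Log2 CPM of SEMA3A and of the 5 genes with the highest r, as the mean of each group of 3 libraries minus the mean of the gene (vertical axis), for untreated (unt) and cytarabine-treated (ara-C) EV, WT and MUT. All 6 lines are lowest in untreated MUT and rise with cytarabine in each line of cells, and SEMA3A has the widest range.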

How the data were processed

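RNA of 18 U2OS libraries was measured by sequencing, in 6 groups of 3 biological replicates per the labels. The labels do not say how the replicates were separated, so p-values measure the spread between these samples. The authors' main table, as deposited, holds estimated counts by gene symbol without normalization, and 70.9% of its values are whole numbers. No gene had fewer than 10 counts over all libraries, and totals ran from 15.4 to 21.9 M. A second deposited table of the authors held a normalized signal for 19591 genes, equal to 1 plus a factor per library times the estimated count (largest relative deviation 7.36e-06); it was used only for its factors. Per the submitters' processing notes, STAR 2.6.1d, CASAVA and hg38 were used; the counting tool, its use of strand and of reads with several matches are not given in the sources used here. Coordinates are those of the authors' table, and exonic lengths are from GENCODE.

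The deposited estimated counts were rounded for edgeR 4.0.16, run in R 4.3.3 (filterByExpr, TMM scaling, 1 quasi-likelihood fit over 18 libraries with a coefficient per group). P-values were adjusted by the method of Benjamini and Hochberg over the 18226 tested genes, and 0.05 was the threshold. Each SE was obtained from a log2 fold change and the square root of its F statistic, and intervals are 95%. CPM used scaled library sizes, and log2 CPM a prior count of 2. Replicates differed by more than sampling noise (chi-square per degree of freedom 2.46 to 48.2), so all were kept. Alternatives were other scalings (RLE, upper quartile, the authors' factors), DESeq2 1.42.0, other low-count filters, only the groups compared, a replicate block and leaving out each library in turn. The script was tested on simulated data.

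The 10 genes and the lists were chosen with earlier results of these data known. Besides the members, SEMA3G, PLXNA2, PLXNA3, PLXNA4 and DNMT3A, the genes named with values are, in each list, the largest rise and fall past the threshold for each cytarabine effect and untreated line difference, the 5 genes most like SEMA3A, and in each chromosome stretch up to 3 neighbours with the largest difference; the list genes named without values were chosen after their calls were seen. The result of 1 marker list is not reported here.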

Additional observations from a re-analysis of the deposited data

Results flagged for a closer look

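The response to cytarabine differed between lines, by a test of the difference of the log2 fold changes, for 5 of the genes named. Over all tested genes 0.285% passed for WT minus EV, 0.214% for MUT minus EV and 1.00% for MUT minus WT. The calls below for SEMA3C, NRP1, PGF and, for WT minus EV, SEMA3B were each lost in some alternative fits, as given above. SEMA3B had a difference of -1.09 for WT minus EV (adjusted p 0.0165) and of 1.12 for MUT minus WT (0.00615). Its 3 treated WT libraries were at 10.4, 11.1 and 11.0 CPM, and no treated library of the other lines was under 19.1. SEMA3E differed by 0.63 for MUT minus WT (0.00586), with all 3 treated MUT libraries above all 3 untreated ones and overlap between treated and untreated WT. SEMA3C differed by 0.37 for the same lines (0.0474). NRP1 differed by 0.75 for MUT minus EV (0.0166), and PGF by -0.89 for MUT minus WT (0.0282). All of these use the untreated MUT or untreated WT libraries, whose levels of these genes differed between lines except for SEMA3B.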

How the results depend on the processing

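Each result was recomputed under 8 other settings and without each library of the groups compared in turn. For single genes this gave 3640 values of 247 results: 3445 kept their side of the threshold, 149 lost a call and 46 gained 1, and no called direction was reversed. In 97 values the sign differed where neither fit made a call. NRP2 and SEMA3D have no value where the filter of a mean of 50 counts removes them. Counts of calls that moved by more than 1.5 times follow; the cause was not tested. Under the authors' factors 3 of the 9 members other than SEMA3A were called for cytarabine in EV, and 1 of the other semaphorins and plexins for untreated WT against EV. With DESeq2 3 members were called for the effect in MUT against EV, and the wider list had 1, 4 and 5 calls for the effects (WT with EV, MUT with EV, MUT with WT), and the other semaphorins and plexins 2 for untreated WT against EV. Among genes with a mean of at least 50 counts the wider list had 2 calls for the effect in MUT against EV. Fitting only the groups compared, where the few libraries also set the spread, gave 0 members for that effect. Over all genes it called 31.5%, 5.83% and 7.16% of those tested for the untreated lines (WT with EV, MUT with EV, MUT with WT), in place of 11.7%, 19.9% and 21.2%. In the wider list it gave 23, 6 and 6 calls for these, 29 for treated MUT against WT, and 5 and 0 for the effects in WT against EV and MUT against WT. In the other semaphorins and plexins it gave 5, 0 and 0 for the untreated lines, and among the chromosome 3 neighbours 11, 1 and 2. By group means, 1 of the 5 genes most like SEMA3A stayed among the first 5.

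Without 1 library, the members called ranged from 3 to 5, 4 to 5 and 6 to 7 for cytarabine in EV, WT and MUT, from 4 to 4, 2 to 5 and 4 to 6 for the untreated lines (WT against EV, MUT against EV, MUT against WT), from 3 to 4, 2 to 4 and 2 to 4 for the treated lines, and from 0 to 1, 0 to 2 and 2 to 4 for the effects in the same order. The wider list ranged from 28 to 31, 29 to 31 and 33 to 38, from 5 to 7, 13 to 22 and 11 to 25, from 7 to 10, 9 to 15 and 13 to 15, and from 0 to 0, 0 to 5 and 0 to 5. The other semaphorins and plexins ranged from 10 to 11, 12 to 13 and 10 to 13 with cytarabine, and from 0 to 1, 2 to 5 and 3 to 5 untreated. Between untreated lines, neighbours on chromosome 3 ranged from 1 to 2, 2 to 5 and 5 to 12, and those on chromosome 7 from 2 to 2, 0 to 1 and 2 to 2. SEMA3A, described only, ranged from 1.59 to 1.86, 0.31 to 0.49 and 1.84 to 2.05 with cytarabine. Its difference of treated WT and EV, from -0.15 to 0.12, changed sign without 1 library.

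Libraries outside a comparison share its spread. Leaving them out in turn changed 7 of 1134 calls of the members, those given above for SEMA3C, NRP1 and PLXND1. Without untreated MUT replicate 3, the calls over all genes for WT against EV went from 2125 to 2973 untreated and from 52 to 148 for the effect, while 4 and 1 members were called as before.

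Other scalings (RLE, upper quartile, the authors' factors) moved the median of all genes by up to 0.0847 on the log2 scale, for cytarabine in MUT from 0.05 to -0.03. The split of higher and lower calls with cytarabine was turned over by the authors' factors, from 4758 and 4182 to 4161 and 5040 in EV, from 4786 and 4146 to 4273 and 4848 in WT, and from 5543 and 4714 to 4817 and 5523 in MUT. Other scalings moved the split of higher and lower calls over all genes for untreated MUT against WT from 2134 and 1738 to 2681 and 1420 (RLE) or 2594 and 1440 (the authors' factors). For the effect in MUT against WT it went from 93 and 90 to 81 and 197 (RLE). For the effect in MUT against EV it went from 28 and 11 to 26 and 28 (RLE) or 31 and 36 (upper quartile), and for that in WT against EV from 26 and 26 to 22 and 10 (the authors' factors).

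The replicate numbers gave no clear sign of pairing, which does not show that the samples were unpaired. Of 45 pairs of groups with the same number, 14 correlated above 0.1 in their deviations from the group means (range -0.29 to 0.53). Among the 9 such pairs within a line, 4 were above 0.1. In all, 8 of 18 libraries were closest to their own number. With the replicate number as a block, 5, 5 and 6 members were called with cytarabine, 4, 3 and 6 between untreated lines, 4, 3 and 3 between treated lines, and 1, 1 and 2 for the effects; SEMA3C lost its call for the effect in MUT against WT (adjusted p 0.0671) and PCSK5 for untreated WT against EV (0.0576). The depth limits NRP2, at 2 to 32 counts per library, and SEMA3D, at 17 to 51.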
